A study of Mus musculus with 4 samples.

Results

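The promoters of the 6 genes of the platelet-derived growth factor (PDGF) family in the deposited promoter table are described here, namely those of the ligand genes Pdgfa, Pdgfb, Pdgfc and Pdgfd and of the receptor genes Pdgfra and Pdgfrb. They were chosen by gene symbol, each has 1 row, and they are 6 of the 26354 promoters listed. The libraries came from aortic media of C57Bl/6J mice, all male, taken without treatment or genetic change after fat, adventitia and endothelium had been removed by hand. The tissue was fixed with formaldehyde, and chromatin carrying dimethylated lysine 9 of histone H3 (H3K9me2) was immunoprecipitated in 2 experiments, v102 and v134, each with 1 ChIP library and 1 library of input chromatin, which has not been immunoprecipitated. Neither the age of the mice nor the number of animals behind a library is given in the sources used here.

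H3K9me2 is a repressive histone mark of facultative heterochromatin, placed mainly by the EHMT methyltransferases. PDGF ligands are dimers that bring receptor chains together, and the receptors are tyrosine kinases that signal through phosphatidylinositol 3-kinase, phospholipase C gamma, Src and the Ras pathway. In the artery wall, PDGF-BB acting on PDGF receptor beta is a classical mitogen and chemoattractant for vascular smooth muscle cells (VSMCs) and lowers their contractile genes, and PDGF receptor alpha is used as a marker of adventitial fibroblasts.

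The H3K9me2 level at a promoter was read as the number of ChIP reads within 1 kb of the transcription start site over the number of input reads, written here as the H3K9me2/input ratio. It is not scaled for library size, so 1 is not the value of an unmarked promoter. Over all promoters the median ratio was 0.162, with quartiles of 0.0780 and 0.343, and the ratio of the total reads was 0.230. The 4 libraries held 162233 to 1084349 reads over these promoters, the ChIP libraries being the shallower, and the median promoter had 4 ChIP reads in v102 and 5 in v134. A single PDGF promoter thus rests on few reads, and its value is given as the reads themselves.

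The promoters differed widely in base composition, and across the genome the H3K9me2/input ratio was lower where GC content was higher. The stretches below run from 250 bases before to 50 bases after a start site in RefSeq (GRCm38.p6), 5′ to 3′ on the gene's strand, with every CG dinucleotide in capitals. They are shown because Pdgfa, the PDGF gene with the highest ratio, starts in DNA dense in CG. Pdgfd and Pdgfra, with lower ratios, have stretches near the usual number. In these stretches the contrast runs against the trend with GC content across the genome. It is weaker in the 2 kb windows around the outermost annotated starts. There the median over promoters placed in the GENCODE annotation was 56 CG dinucleotides, and Pdgfa held 104, Pdgfra 88 and Pdgfd 38. Pdgfb and Pdgfc do not follow the contrast, since their 2 kb windows held 112 and 101 and their ratios were lower than that of Pdgfa. Pdgfa has several starts, and 2 of them are given. Both stretches lie outside the 2 kb window that is used below for the GC content of Pdgfa.
Pdgfa chr5:138994232-138994531 (- strand): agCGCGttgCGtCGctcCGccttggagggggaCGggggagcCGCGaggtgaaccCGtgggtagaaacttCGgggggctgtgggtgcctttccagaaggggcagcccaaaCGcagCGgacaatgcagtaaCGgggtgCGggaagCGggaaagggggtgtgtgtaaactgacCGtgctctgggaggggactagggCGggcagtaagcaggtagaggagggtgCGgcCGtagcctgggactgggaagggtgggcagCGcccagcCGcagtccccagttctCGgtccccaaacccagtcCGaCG
Pdgfa chr5:138994895-138995194 (- strand): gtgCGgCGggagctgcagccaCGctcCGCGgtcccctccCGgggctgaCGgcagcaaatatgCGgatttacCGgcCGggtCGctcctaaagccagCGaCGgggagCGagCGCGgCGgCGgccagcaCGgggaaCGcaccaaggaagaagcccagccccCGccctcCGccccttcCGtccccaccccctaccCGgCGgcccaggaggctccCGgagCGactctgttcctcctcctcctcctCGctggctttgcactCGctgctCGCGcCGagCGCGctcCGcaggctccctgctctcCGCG
Pdgfd chr9:6168236-6168535 (+ strand): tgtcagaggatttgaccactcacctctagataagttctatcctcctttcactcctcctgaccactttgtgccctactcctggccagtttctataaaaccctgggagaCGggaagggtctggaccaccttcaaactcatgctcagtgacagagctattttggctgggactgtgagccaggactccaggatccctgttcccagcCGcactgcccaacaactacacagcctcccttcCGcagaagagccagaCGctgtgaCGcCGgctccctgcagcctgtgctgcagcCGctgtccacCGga
Pdgfra chr5:75152001-75152300 (+ strand): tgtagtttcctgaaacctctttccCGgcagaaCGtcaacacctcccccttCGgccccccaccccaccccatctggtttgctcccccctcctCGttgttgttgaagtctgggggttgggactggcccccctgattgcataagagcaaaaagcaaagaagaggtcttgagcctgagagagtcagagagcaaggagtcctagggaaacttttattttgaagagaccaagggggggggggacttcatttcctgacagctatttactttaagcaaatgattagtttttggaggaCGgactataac
The Pdgfa stretches held 24 and 37 CG dinucleotides, compared with 8 in that of Pdgfd and 5 in that of Pdgfra, and the median over 32851 RefSeq promoters of this length was 7. The letters GGGCGG, the GC box, were searched on both strands and occurred once in the first Pdgfa stretch and 2 times in the second. They occurred in 35.7% of all promoters. The letters TATAAA were found once in the Pdgfd stretch and in 13.6% of all promoters, and neither motif was in the Pdgfra stretch. The Pdgfc promoter matched too, with 8 CG dinucleotides, whereas Pdgfb and Pdgfrb were not matched, so 4 of the 6 genes had a sequence.

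None of the 6 PDGF promoters was called above input, and both receptor promoters were called below it. Libraries were scaled by their reads over the listed promoters. Above and below input are therefore relative to those promoters, not to the whole genome. In the quasi-likelihood test of edgeR, adjusted by Benjamini-Hochberg over the whole table, 0 of 6 were above input, where 18.6% of all promoters were, and 2 of 6 were below, where 17.0% of all promoters were. At an unadjusted p under 0.05 the same test placed 0 members above and 3 below, next to 21.4% and 24.8% of all promoters. By DESeq2 at an unadjusted p under 0.05 there were 0 above and 2 below, next to 15.1% and 9.47% of all promoters, and its adjusted p was undefined at all 6 members. The experiment number pairs each ChIP with its input. With the experiment as a block in the edgeR model, 1 of 6 remained below input, namely Pdgfrb, where 8.30% of all promoters were below. For scale, the study's positive control locus Magea2 had 3 and 7 ChIP reads over 6 and 16 input reads (ratio 0.455). Magea2 was not called above input (edgeR adjusted p = 0.170), so a missing call does not show that the mark was absent. The negative control Actb had 0 and 1 ChIP reads over 31 and 53 input reads and was called below (edgeR adjusted p = 0.00021).

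**Figure D1:**
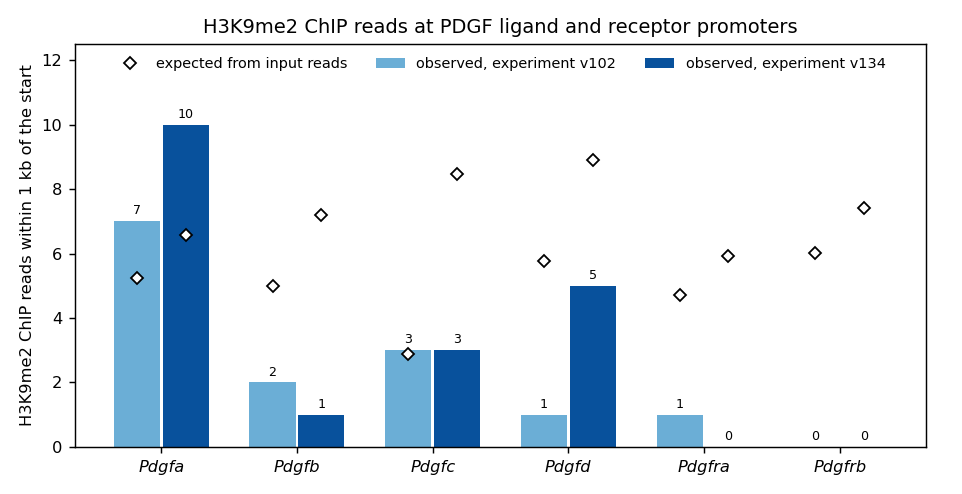
H3K9me2 ChIP reads (y axis) at each PDGF promoter (x axis) in experiments v102 and v134, as bars, with open diamonds for the reads expected from that experiment's input reads at the ratio of the library totals. Pdgfa lies above its diamonds in both experiments, with 7 and 10 reads, whereas Pdgfra has 1 and 0 reads and Pdgfrb has 0 in both.

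Pdgfa encodes the A chain, which binds PDGF receptor alpha as a dimer. Its promoter had 7 ChIP reads in v102 and 10 in v134, over 20 and 31 input reads. It was the only PDGF promoter with more ChIP reads than its input predicted in both experiments, at 17 reads against 11.8 expected from the library totals. The H3K9me2/input ratio was 0.333 (95% Wilson interval 0.194 to 0.573), and the mean log2 ratio of the 2 experiments, scaled by the library totals with 1 read added, was 0.62 ± 0.11 (SD, n = 2). This placed Pdgfa at percentile 74.1 of all promoters, at 67.7 in v102 and 76.0 in v134. The difference from input did not pass the test, with a log2 fold change of 0.67 (SE 0.50) and an edgeR adjusted p of 0.288.

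Pdgfb encodes the B chain, the classical smooth muscle mitogen, made largely by endothelium and platelets. It had 2 ChIP reads in v102 and 1 in v134, over 19 and 34 input reads, where 4.98 and 7.20 ChIP reads were expected. The ratio was 0.0566 (95% interval 0.0187 to 0.171), and the mean log2 ratio was −1.35 ± 0.77 (SD, n = 2), at percentile 19.8. Both experiments were below expectation, and the log2 fold change of −1.85 (SE 0.82) missed the threshold, with an edgeR adjusted p of 0.0617. The call rests on the library kept and on scaling. Pdgfb passed without the ChIP library of v102 (adjusted p = 0.0496 in edgeR) and with library totals in place of TMM (adjusted p = 0.0379 in edgeR).

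Pdgfc and Pdgfd encode ligands that are secreted in latent form and released by cleavage of their CUB domain. At Pdgfc there were 3 ChIP reads in each experiment, over 11 input reads in v102 and 40 in v134. Its experiments differed in direction, with log2 ratios of 0.35 in v102 and −1.12 in v134, and its summed ratio was 0.118 (95% interval 0.0517 to 0.268), at percentile 38.2 of all promoters. By the mean log2 ratio of −0.39 ± 1.04 (SD, n = 2) it was at percentile 48.0. Pdgfd had 1 ChIP read in v102 and 5 in v134, over 22 and 42 input reads. Its ratio was 0.0938 (95% interval 0.0415 to 0.212), and both experiments lay below expectation, at 1 read against 5.77 and 5 reads against 8.89. Neither ligand passed the test against input. The log2 fold change was −0.78 (SE 0.68) at Pdgfc and −1.14 (SE 0.65) at Pdgfd, with edgeR adjusted p of 0.367 and 0.149. Single libraries moved both values. The log2 fold change of Pdgfd was −0.52 without the ChIP library of v102 and −2.43 without that of v134, and that of Pdgfc was −0.12 without the input of v134 and −0.90 without the ChIP library of v102.

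The receptor promoters were almost free of ChIP reads. Pdgfra, whose product binds the A, B and C chains, had 1 ChIP read in v102 and 0 in v134, over 18 and 28 input reads, where 4.72 and 5.93 reads were expected. Its ratio was 0.0217 (95% interval 0.00378 to 0.125), at percentile 7.12 of all promoters by the mean log2 ratio of −1.97 ± 0.92 (SD, n = 2). Pdgfra was called below input, with a log2 fold change of −3.16 (SE 1.10) and an edgeR adjusted p of 0.0167. The call was lost with the experiment as a block (edgeR adjusted p = 0.0564) and without the ChIP library of v134 (0.200), the input of v102 (0.235) or the input of v134 (0.170) in the same test.

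Pdgfrb encodes the receptor through which PDGF-BB drives smooth muscle growth, and it is expressed by smooth muscle cells and pericytes. No ChIP read was counted at its promoter in either experiment, over 23 input reads in v102 and 35 in v134, where 6.03 and 7.41 ChIP reads were expected. A count of 0 was given an approximate limit of 3 reads, here taken over both ChIP libraries together and with the input reads as exact. By this limit the ratio was at most 0.0517 and at least 4.45-fold lower than the ratio of the totals over all promoters. It is not a Wilson interval like those of the other promoters. It stood at percentile 0.653 by the mean log2 ratio of −2.79 ± 0.20 (SD, n = 2). Pdgfrb was called below input in edgeR (adjusted p = 0.000563, and 0.00950 with the experiment as a block). The call held in each of the 8 alternatives that gave an edgeR adjusted p, from 0.000359 to 0.0432. Among the 12880 promoters with at least as many input reads, 164 (1.27%) also had no ChIP read.

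In the order of the ratios, Pdgfrb was lowest, followed by Pdgfra, Pdgfb, Pdgfd, Pdgfc and Pdgfa. The 95% intervals of each neighbouring pair in this order overlapped, with the limit of 3 reads used for Pdgfrb, and the differences between members were not tested, so overlap does not show that they had the same level. Of all pairs, only those of Pdgfa with Pdgfb, Pdgfra and Pdgfrb had intervals that did not overlap. Within a bulk tissue, fewer cells that carry the mark and less of the mark in each cell cannot be told apart.

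**Figure D2:**
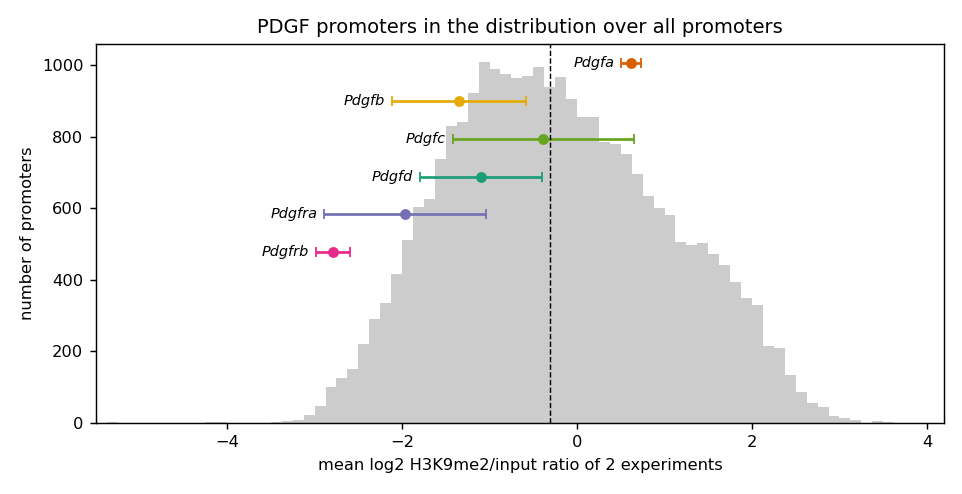
Number of promoters (y axis) by mean log2 H3K9me2/input ratio of the 2 experiments (x axis), for all 26354 promoters, with the 6 PDGF promoters marked. Pdgfrb and Pdgfra lie in the lower tail, at percentiles 0.653 and 7.12, and Pdgfa lies furthest to the right, at percentile 74.1.

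Summed over the family, the PDGF promoters had fewer ChIP reads per input read than the rest of the table. The 6 promoters held 33 ChIP reads and 323 input reads, a ratio of 0.102 (95% interval 0.0715 to 0.146), compared with 0.230 over all other promoters, or 0.444 of it. The experiments gave like values, 14 ChIP reads over 113 input reads in v102 (0.473 of the other promoters) and 19 over 210 in v134 (0.427). The receptors accounted for 1 ChIP read over 104 input reads, a ratio of 0.00962 (95% interval 0.00169 to 0.0548). The 4 ligands held 32 over 219, a ratio of 0.146 (95% interval 0.101 to 0.211). Pdgfa alone gave 17 of the 33 ChIP reads. Without it the other 3 ligands held 15 over 168, a ratio of 0.0893 (95% interval 0.0530 to 0.151). These intervals hold for counting error alone, because without molecular identifiers several reads may stem from 1 molecule, and the 6 promoters are not replicates of one another.

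Seen against promoters of like base composition, Pdgfa stood higher and Pdgfb no longer stood low. This comparison of rank within GC deciles was chosen after the values were seen. It takes the outermost start of each gene in the GENCODE annotation, which may not be the start that was counted. Across the 10 deciles of GC content in the 2 kb window, the median H3K9me2/input ratio fell from 0.594 in the lowest to 0.0667 in the highest. Pdgfa, with 59.2% GC in the window around its outermost start, was in decile 9, where the median ratio was 0.0845, and its own 0.333 was at percentile 95.2 of that decile. Pdgfb (62.4% GC, decile 10) was at percentile 42.6 of its decile, and Pdgfc (57.0% GC, decile 9) at percentile 64.5. Pdgfd and the receptors lay in windows nearer the median of 50.9% GC and ranked low within them. Pdgfd (47.1% GC) was at percentile 21.8 of its decile, Pdgfra (50.0% GC) at 4.11, and Pdgfrb (53.4% GC) at 0. A ratio of 0 always has percentile 0 here, and 2.80% of the promoters in the decile of Pdgfrb had that ratio, Pdgfrb included. When the trend with GC was removed from the mean log2 ratio by a lowess fit, the percentiles were 95.4 for Pdgfa, 70.6 for Pdgfc, 44.3 for Pdgfb, 13.5 for Pdgfd, 5.41 for Pdgfra and 1.75 for Pdgfrb.

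**Figure D3:**
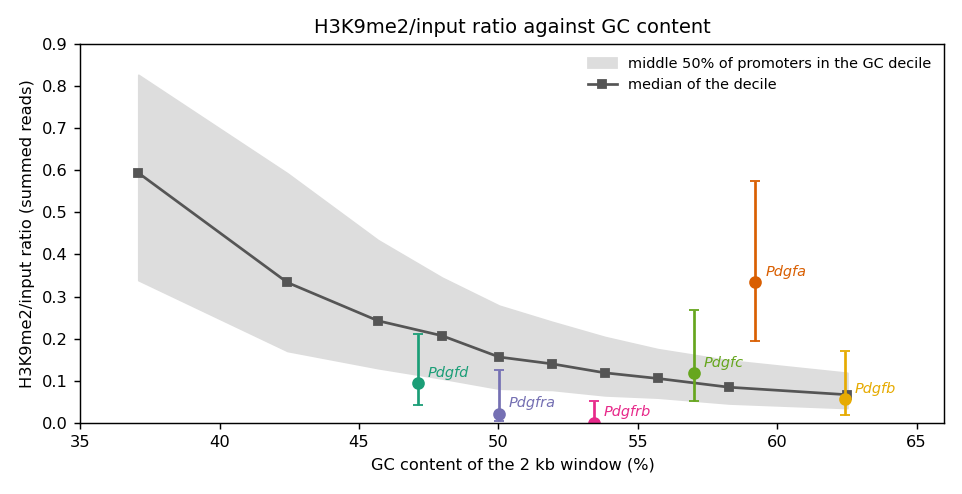
H3K9me2/input ratio from summed reads (y axis) against GC content of the 2 kb window in percent (x axis), with the median of each GC decile as a line, the middle 50% of promoters as a band, and the 6 PDGF promoters as points with 95% intervals (for Pdgfrb, the limit of 3 reads). Pdgfa, at 0.333, lies above the band, and Pdgfd, Pdgfra and Pdgfrb lie below it.

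The genes were placed with the GENCODE annotation of GRCm38. Pdgfa (ENSMUSG00000025856.15) spans 138976014 to 138997370 of chromosome 5 on the minus strand, and its 7 annotated transcript starts are spread over 3089 bp. A window around any of the others has 65.2% to 72.3% GC, in decile 10. There a ratio of 0.333 would be at percentile 96.6, but whether it was counted at one of them is not known. The antisense gene 6330403L08Rik starts 19 bp from one of these starts, so a window there would hold nearly the same reads for both genes. The antisense promoter had 2 and 1 ChIP reads over 20 and 17 input reads, a ratio of 0.0811 (95% interval 0.0265 to 0.248). The Pdgfa and 6330403L08Rik counts differed by 14 ChIP reads and 14 input reads. Among the 186 pairs of listed promoters with starts at most 50 bp apart, 133 (71.5%) had the same ChIP count, and 4 pairs (2.15%) differed by 14 ChIP reads or more. In RefSeq, Pdgfa starts 3422 bp from the GENCODE gene start. The windows of the study are not given in the sources used here, and which Pdgfa start was counted was not tested further.

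Pdgfb (ENSMUSG00000000489.7, chromosome 15, 79995874 to 80014977, minus strand) has 3 transcript starts within 1774 bp, all in windows of GC decile 10. Its ratio would have the same rank at each, if it was counted there. In RefSeq the gene starts 9637 bp from the GENCODE gene start, and the GC content there was not examined. Pdgfc (ENSMUSG00000028019.9, chromosome 3, 81036416 to 81214040, plus strand) has 3 starts within 1008 bp. Pdgfd (ENSMUSG00000032006.15, chromosome 9, 6168584 to 6378850, plus strand) has 3 starts within 77 bp. Pdgfra (ENSMUSG00000029231.15, chromosome 5, 75152292 to 75198215, plus strand) has 9 starts spread over 9542 bp, and windows around them range from 49.5% to 60.2% GC. Pdgfrb (ENSMUSG00000024620.11, chromosome 18, 61045150 to 61085061, plus strand) has 2 starts 50 bp apart. Around the outermost start of each gene, no window of another placed promoter overlapped that of a PDGF promoter. Only the 22329 listed promoters (84.7%) whose symbol matched 1 gene of the annotation could be placed.

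Promoters near the PDGF genes were next compared with them. Within 500 kb of the 6 start sites lay 71 other listed promoters that could be placed. Of these, 6 (8.45%) were called above input and 15 (21.1%) below, next to 18.6% and 17.0% over all promoters, placed or not. Listed promoters that could not be placed are missing from these neighbours. One of the 6 above input lay within the Pdgfd gene. Ddi1, a testis-expressed member of the DNA damage-inducible family, lies between exons of Pdgfd on the opposite strand, its start 101 kb from that of Pdgfd. Its promoter had 19 and 22 ChIP reads over 20 and 44 input reads, a ratio of 0.641 (95% interval 0.434 to 0.946), and it was called above input with a log2 fold change of 1.64 and an edgeR adjusted p of 0.000241. The interval of the Pdgfd promoter ended at 0.212, below that of Ddi1. The Ddi1 window had 36.8% GC and that of Pdgfd 47.1%, and the part of base composition in this difference was not tested.

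Around Pdgfb, 24 promoters were listed, 8 of them below input and 1 above. The latter was Cbx7, a chromobox subunit of Polycomb repressive complex 1, with 20 and 29 ChIP reads over 22 and 53 input reads at 43.9 kb from Pdgfb (ratio 0.653, edgeR adjusted p = 6.31e-05). Around Pdgfc, Gria2, a glutamate receptor subunit of neurons, had a ratio of 0.750 (edgeR adjusted p = 0.000328) and was 1 of 3 neighbours. Its start was 234 kb from that of Pdgfc, and the nearest neighbour, Gm16000 at 4.02 kb, had a ratio of 0.190 and was not called. Of the 17 neighbours of Pdgfa, 2 were above input, Zfand2a (ratio 0.755) and 1700123K08Rik (0.615), and 3 were below. The median ratio of the neighbours was 0.132 around Pdgfa, 0.104 around Pdgfb and 0.190 around Pdgfc.

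Each receptor gene lies near a related receptor tyrosine kinase gene. None of the 7 neighbours of Pdgfra was above input, and 1 was below it, the stem cell factor receptor gene Kit, 423 kb from Pdgfra, with 2 and 0 ChIP reads over 19 and 34 input reads (ratio 0.0377, edgeR adjusted p = 0.0272). Csf1r, the receptor gene for macrophage colony-stimulating factor, has its start 55.4 kb from that of Pdgfrb and had 8 and 5 ChIP reads over 32 and 63 input reads (ratio 0.137, 95% interval 0.0773 to 0.242). Its interval lay above the limit of 0.0517 at Pdgfrb. Cdx1, a homeobox gene of the intestine, has its start 8.95 kb from that of Pdgfrb and had 9 and 3 ChIP reads over 30 and 43 input reads (ratio 0.164). Its lower bound of 0.0901 was also above the limit at Pdgfrb. The 19 neighbours of Pdgfrb included 1 above input, Tcof1 (ratio 0.483), and 3 below, with a median ratio of 0.154.

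**Figure D4:**
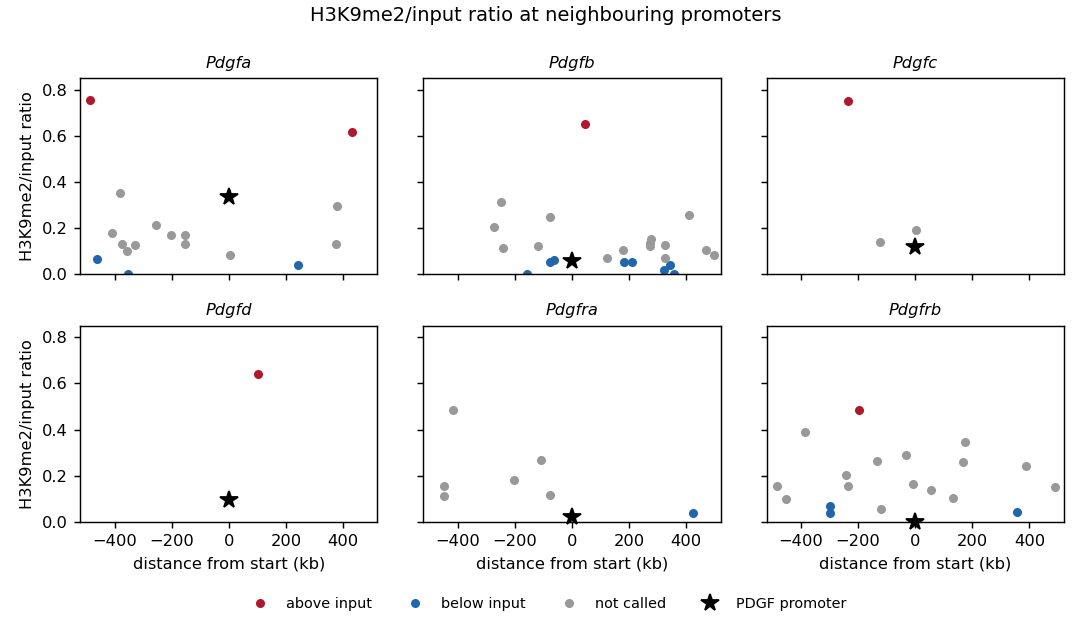
H3K9me2/input ratio from summed reads (y axis) at listed promoters against the distance of their start from that of each PDGF gene in kb (x axis, positive downstream of the PDGF start), 1 panel per gene, coloured by the edgeR call, with a star for the PDGF promoter. Pdgfrb (0) and Pdgfra (0.0217) lie below every placed neighbour, and Pdgfd (0.0938) lies below Ddi1 (0.641).

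Other genes of the pathway were listed by role, and 54 of the 57 were in the table, without Vegfd, Flt4 and Elk1. Like the PDGF promoters, none was above input. In the edgeR test, adjusted over the whole table, 19 of 54 (35.2%) were below input and 35 were not called, compared with 17.0% below over all promoters. With the experiment as a block, 11 of 54 were below, compared with 8.30%. At an unadjusted p under 0.05 the edgeR test placed 0 above and 26 below, where 21.4% and 24.8% of all promoters were, and DESeq2 placed 0 above and 11 below, where 15.1% and 9.47% were. The median ratio was 0.0745 in these lists, 0.0752 at the PDGF promoters and 0.162 over all promoters, and the only listed promoter above the median of all was Crkl, an adaptor gene (ratio 0.25). Base composition moved with this difference. The median GC content of the windows was 57.2% in the lists, 55.2% at the PDGF promoters and 50.9% over all promoters, and the median percentile after removal of the GC trend was 35.6 in the lists and 28.9 at the PDGF promoters.

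The counts of single lists are small and stand next to 17.0% below input over all promoters, or 8.30% with the experiment as a block. Among ligands, the VEGF genes are the closest relatives of the PDGF genes, and 1 of 4 was below input, Vegfb, with 1 and 2 ChIP reads over 31 and 55 input reads (ratio 0.0349). The 4 ranged from 0.0349 to 0.140. Of the ligands of the related receptors, 2 of 4 were below input. These were Il34, a second ligand of the Csf1r product, and Flt3l, the ligand of FLT3, with ratios of 0.0588 and 0.0328. The call of Il34 was lost with the block. Kitl, the stem cell factor gene, had 4 ChIP reads over 58 input reads and was not called.

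Of the related receptor kinases, 2 of 5 were below input, Kit and the VEGF receptor gene Flt1, with ratios of 0.0377 and 0.0625. Both calls were lost with the experiment as a block, which left 0 of 5. Kdr, the main endothelial VEGF receptor gene, had 1 ChIP read over 33 input reads and was not called. Of the 9 genes for processing enzymes and co-receptors, 4 were below input. They were Furin and Pcsk7, proprotein convertases, St14, the matriptase gene, and Lrp1, a co-receptor of PDGF receptor beta, which had 0 ChIP reads over 17 and 34 input reads. With the block, Furin and Lrp1 kept the call and Pcsk7 and St14 lost it. The tissue and urokinase plasminogen activator genes Plat and Plau, whose products cleave PDGF-C and PDGF-D, had ratios of 0.0833 and 0.0714 and were not called.

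Downstream of the receptors, 5 of 23 signalling genes (21.7%) were below input, a share near the 17.0% over all promoters. Grb2, the adaptor that brings SOS to the receptor, and Stat5b had 0 ChIP reads in both experiments, over 54 and 58 summed input reads. Shc1 and Nck2, further adaptors, and Pik3ca, the catalytic subunit of phosphatidylinositol 3-kinase, had ratios of 0.0492, 0.0274 and 0.0308. With the block, 4 of these calls were kept and that of Shc1 was lost. The 18 that were not called included Src, Fyn, Plcg1 and Ptpn11, with ratios from 0.0741 to 0.126. Of the immediate early and phenotype-switching genes, 5 of 9 were below input, namely Fos, Fosb, Jun, Junb and Myc, all transcription factors of the early growth factor response. Fosb, Jun and Myc had 0 ChIP reads in both experiments and kept the call with the block, and Fos and Junb lost it. Egr1, Srf, Klf4 and Sp1 were not called, at ratios from 0.0476 to 0.148.

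**Figure D5:**
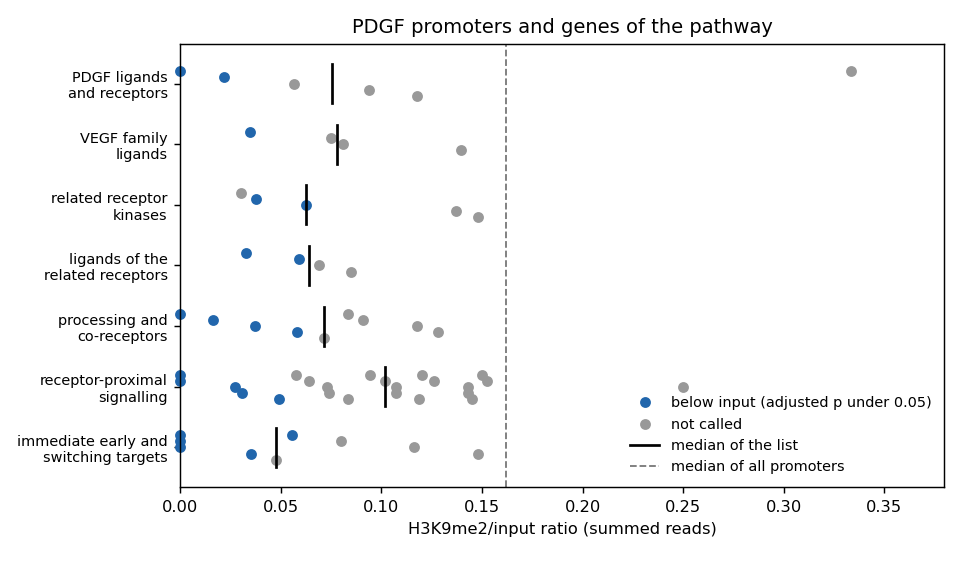
H3K9me2/input ratio from summed reads (x axis) of each promoter in the 6 pathway lists and the PDGF family (rows), coloured by the edgeR call, with the median of each list as a vertical bar and the median of all promoters, 0.162, as a dashed line. All listed promoters but Crkl and Pdgfa lie to the left of the dashed line.

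Among the listed promoters, the one nearest to each PDGF promoter in the log2 ratios of both experiments was Jun for Pdgfrb, at a distance of 0.28 on the log2 scale over 2 experiments, and Junb for Pdgfra, at 0.51. For the ligands it was Crkl for Pdgfa (0.53), Stat3 for Pdgfb (0.11), Stat5a for Pdgfc (0.08) and Crk for Pdgfd (0.23). Of all promoters, between 0.148% for Pdgfc and 7.48% for Pdgfa lay at least as near, and for Pdgfra and Pdgfrb these shares were 2.66% and 0.554%. Pdgfrb and Jun both had 0 ChIP reads in both experiments, so their distance is set by their input reads alone. Pdgfra and Junb had 1 and 2 ChIP reads in all. Cell type markers were read as promoter ratios only, because the assay does not measure expression and so does not check the labelled cell type. The smooth muscle myosin gene Myh11 had 0 ChIP reads over 60 input reads and was called below input, as the only 1 of the 4 smooth muscle markers. The ratios were 0.0833 at Acta2, 0.0820 at Tagln and 0.0725 at Cnn1, which were not called. Ptprc, the leukocyte marker CD45, was above input, with 15 and 39 ChIP reads over 18 and 56 input reads (edgeR adjusted p = 6.54e-06). The endothelial markers Pecam1 (0.0685) and Cdh5 (0.185) and the fibroblast markers Dcn (0.125) and Lum (0.175) lay near the PDGF promoters or the median, and of these Pecam1 was called below input (edgeR adjusted p = 0.0478, and 0.0922 with the block).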

How the data were processed

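Processing was read from the study's methods and GEO's labels. The authors made libraries from the immunoprecipitated and input DNA with a template-switching kit, trimmed the reads (Trim Galore 0.4.2, cutadapt 1.9.1), aligned them to GRCm38 (Bowtie2 2.2.7) and counted reads within 1 kb of each start with SeqMonk. They deposited raw counts for the 4 libraries, together with a ratio (ChIP counts of both experiments over their input counts), which was reproduced at all 26354 promoters (within 1e-6). The authors kept promoters with at least 20 input reads, and the lowest sum in the table was 21. The annotation release and the treatment of duplicates are not given in the sources used here. Repeated amplification and mapping can change counts at single promoters.

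The members were taken by symbol, and members and lists were chosen with earlier results of these data known. All members and markers were named. Listed genes and neighbours within 500 kb were taken by symbol or distance, but those named in the text were chosen partly by their call. All 6 neighbours above input are named, and of the 15 below only Kit is. ChIP was tested against input by the quasi-likelihood method of edgeR 4.0.16 in R 4.3.3 on the counts of all promoters, with TMM and Benjamini-Hochberg adjustment at 0.05, 2 libraries against 2. The SE is the log2 fold change divided by the square root of F. These p-values rest on counting error and on a spread between libraries that is estimated partly from other promoters. At Pdgfrb, with 0 ChIP reads in both experiments, the ChIP reads show no spread of their own. Separate animals are not stated for the 2 experiments. The labels pair each ChIP with an input, so the experiment number was tried as a block (the differences between experiments in ChIP and in input correlated at 0.104 across promoters). Log2 ratios used 1 added read, intervals are Wilson intervals at 95%, and a count of 0 was given a limit of 3 reads. Expected reads are the input reads times the ratio of the totals of the 2 libraries. GC content came from 2 kb windows in GENCODE, in which 22329 symbols (84.7%) matched 1 gene, with a lowess fraction of 0.3. Alternatives were library totals, DESeq2 1.42.0, at least 20 reads in each input, no mitochondrial rows, other pseudocounts of 0.5 and 5 reads, and each library left out. The edgeR step was tested on simulated data. Other steps ran in Python 3.11.15 (pandas 2.3.3, numpy 2.4.6, statsmodels 0.14.6, scipy 1.17.1).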

Additional observations from a re-analysis of the deposited data

How the results depend on the processing

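In the alternatives fitted with edgeR, no PDGF or pathway promoter tested was called above input, and the log2 fold change of each member tested kept its sign. DESeq2 gave no adjusted p at the 6 members, so it gives no count for them. The number of PDGF promoters below input, 2 in the report, was 1 with the experiment as a block and 1 where each input had at least 20 reads, which only Pdgfa, Pdgfd and Pdgfrb pass. It ranged from 1 to 3 when single libraries were left out. The number of pathway promoters below input, 19 in the report, was 11 with the block. Where each input had at least 20 reads it was 4, but not all 54 pass that limit. Of all promoters that pass it, 1678 of 13993 were below. DESeq2 gave 0, but its adjusted p was undefined at 52 of the 54, so that count shows no loss of calls. Without single libraries it ranged from 1 (without the input of v134) to 20, and it was 4 without the input of v102. The block changed no other call of a PDGF promoter than that of Pdgfra. The pooled PDGF ratio, 0.444 of that of other promoters, was 0.427 without v102 and 0.473 without v134. It became 0.40 without mitochondrial rows, 0.256 without Pdgfa, 0.483 without Pdgfb, 0.502 without Pdgfra and 0.541 without Pdgfrb. The mean log2 ratio of Pdgfc changed sign under 3 alternatives, and over all alternatives it ranged from −1.12 to 0.54. Library totals in place of TMM moved the median log2 fold change over the table by −0.14.

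Over all promoters, edgeR called 4902 above and 4484 below input. The block gave 4173 and 2187, DESeq2 gave 3058 and 27 (with 17883 adjusted p undefined), and a minimum of 20 reads per input gave 2446 and 1678. Calls below input were 3995 and 2328 without the ChIP of v102 and v134, and 495 and 515 without the input of v102 and v134, where the lone library is assumed to vary like the other group. Calls above fell to 3037 and 3091 without those inputs. The cause of these shifts was not tested. Depth limits the precision at each member, where 10.6 to 14.7 ChIP reads were expected.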
